A study of Mus musculus with 10 samples.

Results

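Imprinted growth regulators were followed through RNA-seq of OP9 cells. The set was named by symbol as *H19*, *Dio3*, *Peg3*, *Mest*, *Plagl1*, *Cdkn1c*, *Grb10*, *Ndn*, *Nnat* and *Sgce*, and 8 of these 10 genes had a row among the 26888 genes of the table. Levels of *Peg3* and *Ndn* were not analysed here. OP9 is a stromal line grown from the skull bone of newborn mice of the strain (C57BL/6xC3H)F2-op/op, which lack functional macrophage colony-stimulating factor, and it is used to support blood stem cells and their precursors. A shared cell line stood behind all 10 libraries. Of these, 6 were reaggregates, in which cells dispersed with trypsin were spun into a pellet and kept for 48 h on a filter where medium meets gas, and 4 were flat submersed cultures. IL-3, a cytokine added to cultures in which blood stem cells mature, was given to reaggregates 2, 4 and 6 at a dose printed in the labels as 200 µg/µl and was left out of reaggregates 1, 3 and 5. The de Bruijn laboratory is given as the source of flat cultures 2 and 4, whereas flat cultures 1 and 3 and all reaggregates carried no label of cell source and are called unlabelled. The genes were picked because their levels in reaggregates and in the flat cultures of either source had already been seen, so in those comparisons the values of the 8 genes are a description without a test. The lists of other genes were also chosen with earlier results of these data known. Their calls, p-values and shares below are therefore no independent test.

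Imprinted genes are transcribed mainly from the maternal or from the paternal copy, according to DNA methylation set in the germ line. Many of them control fetal growth through insulin-like growth factors, thyroid hormone, the cell cycle or the differentiation of mesenchyme, and several are abundant in embryonic mesoderm and decline after birth. RNA totals as measured here do not show which copy was read.

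Each library held an estimated 7.35 to 9.43 M reads on genes in reaggregates and 8.26 to 8.7 M in flat cultures. Levels are given in RPM, the reads on a gene per 1 M reads of the library, and 3 reads, taken as the smallest amount a library can show, corresponded to a floor of 0.318 to 0.408 RPM, which takes account of counting error alone. Consecutive reaggregates (1 and 2, 3 and 4, 5 and 6) resembled each other, with Pearson's r across genes of 0.9941 to 0.9947 against 0.9611 to 0.9804 for other pairs, and what the cultures of such a pair shared, other than IL-3 being given to only 1 of them, is not in the labels, so p-values over 6 reaggregates treat as independent what may not be. Of the markers of the labelled cell type, the collagen genes *Col1a1* and *Col1a2* and the vimentin gene *Vim* were the most abundant. Summed over 8 stromal markers, the level was 20310 to 26960 RPM in reaggregates. It was 11640 to 19160 RPM in unlabelled and 8166 to 11880 RPM in de Bruijn flat cultures. *Thy1* stayed at or below 0.359 RPM in every library, and *Mcam* was at 1.59 to 9.1 RPM. *Col3a1* was at 38.8 and 31.5 RPM in the de Bruijn cultures. *Vim* ran opposite to the sum, at 4140 to 4830 RPM in reaggregates and 5760 to 7800 RPM in flat cultures. Of 5 blood cell markers, *Ptprc* and *Adgre1* were listed at 0 in all 10 libraries, *Itgam* and *Kit* did not exceed 0.683 RPM, and *Cd34*, which other cells also express, was at 8.15 to 72.6 RPM except in the de Bruijn cultures, where it was listed at 0.

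*Dio3* and *Mest* were higher and *Grb10* was lower in the de Bruijn than in the unlabelled flat cultures, with 2 cultures of each source. Such values had chosen the members, so this is a description without a test. *Dio3*, *Mest* and *Grb10* were the members that met the limits for a call between the sources. The windows around their start sites are shown for that reason, and each runs from 250 bases before to 50 bases after the RefSeq start on build GRCm38.p6, 5′ to 3′ on the strand of the gene, with CpG dinucleotides, the targets of DNA methylation, in capitals. No methylation was measured in these libraries.

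*Dio3*, chr12:110278980-110279279, plus strand: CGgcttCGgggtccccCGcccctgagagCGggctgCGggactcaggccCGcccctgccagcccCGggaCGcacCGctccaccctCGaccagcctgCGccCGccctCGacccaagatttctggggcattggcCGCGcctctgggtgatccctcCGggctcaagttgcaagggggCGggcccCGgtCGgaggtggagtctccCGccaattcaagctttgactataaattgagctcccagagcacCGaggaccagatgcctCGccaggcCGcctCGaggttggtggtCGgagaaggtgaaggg

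*Mest*, chr6:30737800-30738099, plus strand: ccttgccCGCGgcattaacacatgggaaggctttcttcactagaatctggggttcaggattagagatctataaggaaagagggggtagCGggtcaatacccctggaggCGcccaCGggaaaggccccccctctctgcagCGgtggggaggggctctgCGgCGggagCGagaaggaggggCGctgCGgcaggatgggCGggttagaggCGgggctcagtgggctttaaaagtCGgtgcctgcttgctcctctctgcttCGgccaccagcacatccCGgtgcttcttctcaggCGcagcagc

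*Grb10*, chr11:12037371-12037670, minus strand: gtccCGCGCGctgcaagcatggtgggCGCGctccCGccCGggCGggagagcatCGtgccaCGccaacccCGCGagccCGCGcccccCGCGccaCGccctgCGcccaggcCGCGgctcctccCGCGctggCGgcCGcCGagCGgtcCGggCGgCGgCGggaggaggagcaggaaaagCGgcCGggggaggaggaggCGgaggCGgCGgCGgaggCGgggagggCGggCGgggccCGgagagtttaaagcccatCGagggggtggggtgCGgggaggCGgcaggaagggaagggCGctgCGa

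The *Dio3* window held 25 CpG, the *Mest* window 17 and the *Grb10* window 45, where the median over all 32851 windows of the same length was 7. Fewer CpG were found in 81.6% of all windows than in that of *Dio3*, in 68.6% than in that of *Mest* and in 98.1% than in that of *Grb10*. Another *Mest* start, at chr6:30733256-30733555, had 8 CpG, a further one lay 3 bases from the window shown and nearly repeats it, and a second *Grb10* start, at chr11:12027922-12028221, had 9. Windows were found for 7 of the 10 genes, *Peg3* and *Ndn* included, and all 10 windows are counted, and *H19*, *Cdkn1c* and *Sgce* had none in the table. *Dio3* alone of the 10 member windows carried a TATA box (TATAAA on either strand), which 13.6% of all windows hold. The GC box GGGCGG, on either strand, was in 7 of the 10 member windows, of which 3 are those of *Mest*, and in 35.7% of all windows, and CCAAT in 2 member windows and 37.4% of all. These are matches of letters, not binding sites.

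*Dio3* encodes the deiodinase that inactivates thyroid hormone and is the last protein-coding gene of the imprinted *Dlk1*-*Dio3* region (a single exon of 2030 bases, NCBIM37 chr12:111517278-111519307, plus strand). Its level in reaggregates 1 to 6 was 0.385, 0, 0.544, 0.768, 0.217 and 0.106 RPM. In unlabelled flat cultures 1 and 3 it was 1.84 and 3.95 RPM, and in de Bruijn flat cultures 2 and 4 it was 49.9 and 58.9 RPM. Every reaggregate was lower than every flat culture. The de Bruijn cultures, at 54.4 ± 6.36 RPM (SD, n = 2), were 18.8-fold higher than the unlabelled ones at 2.90 ± 1.49 RPM (SD, n = 2). As a difference of log2(RPM + 0.5) between the sources this was 4.08, and ran from 3.62 to 4.55 when a flat culture was left out. On the log2(RPM + 0.5) scale, the reaggregate mean minus the flat mean was −4.06 (SE 0.83). Pseudocounts of 0.1 and 1 in place of 0.5 gave −5.15 and −3.46. The difference of −4.06 was made up of −6.10 against de Bruijn cultures and −2.02 against unlabelled cultures. Leaving out a library moved it between −4.90 and −3.34, and reaggregates 1 to 6 had 3, 0, 5, 6, 2 and 1 reads, so that only 2 of the 6 were above the floor. *Dio3* was thus low in reaggregates whichever flat source served as the reference, with a size that depended on the source.

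*H19* is a maternally expressed noncoding RNA that lies beside *Igf2* and carries the precursor of miR-675 in its exon (NCBIM37 chr7:149761434-149764048, minus strand, 2372 exonic bases). Reaggregates 1 to 6 had 0.497, 0.806, 0, 0.128, 0.108 and 0 RPM, the highest of which corresponds to 6 reads, and 2 of the 6 were above the floor. The flat cultures 1 to 4 had 2.30, 2.15, 13.2 and 1.57 RPM. No reaggregate reached the lowest flat culture, and flat culture 3 stood above the other 3. The difference of means was −2.43 (SE 0.50) on the log2(RPM + 0.5) scale, against −3.72 and −1.85 with pseudocounts of 0.1 and 1. On the scale with 0.5 it was −1.82 when flat culture 3 was left out. Against the unlabelled cultures alone it was −3.13 and against the de Bruijn cultures alone −1.73, and this gap between the sources rested on flat culture 3: de Bruijn minus unlabelled was −1.40, and −0.26 without that culture.

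*Mest* encodes a protein with a hydrolase fold that is abundant in embryonic mesoderm and in expanding fat (NCBIM37 chr6:30673547-30698457, plus strand). Reaggregates 1 to 6 had 2.95, 1.91, 2.07, 1.41, 1.08 and 0.956 RPM. Unlabelled flat cultures 1 and 3 had 0.345 and 1.56 RPM, and de Bruijn flat cultures 2 and 4 had 28.5 and 14.0 RPM. The reaggregates overlapped the unlabelled cultures and lay wholly below the de Bruijn cultures. The direction turned with the reference: the log2(RPM + 0.5) difference was 0.69 against unlabelled and −3.27 against de Bruijn cultures, with −1.29 (SE 0.82) against all 4, which ran from −2.16 to −0.46 when a library was left out. Of the exonic bases of *Mest*, 904 (23%) are shared with *Copg2* on the opposite strand, and whether counting used the strand is not given in the sources used here. *Copg2* was at 62.3 and 54.2 RPM in the unlabelled and at 114 and 93.0 RPM in the de Bruijn cultures (log2 difference 0.82, SE 0.27, limma adjusted p = 0.151), and its part in the *Mest* values was not tested.

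**Figure D1:**
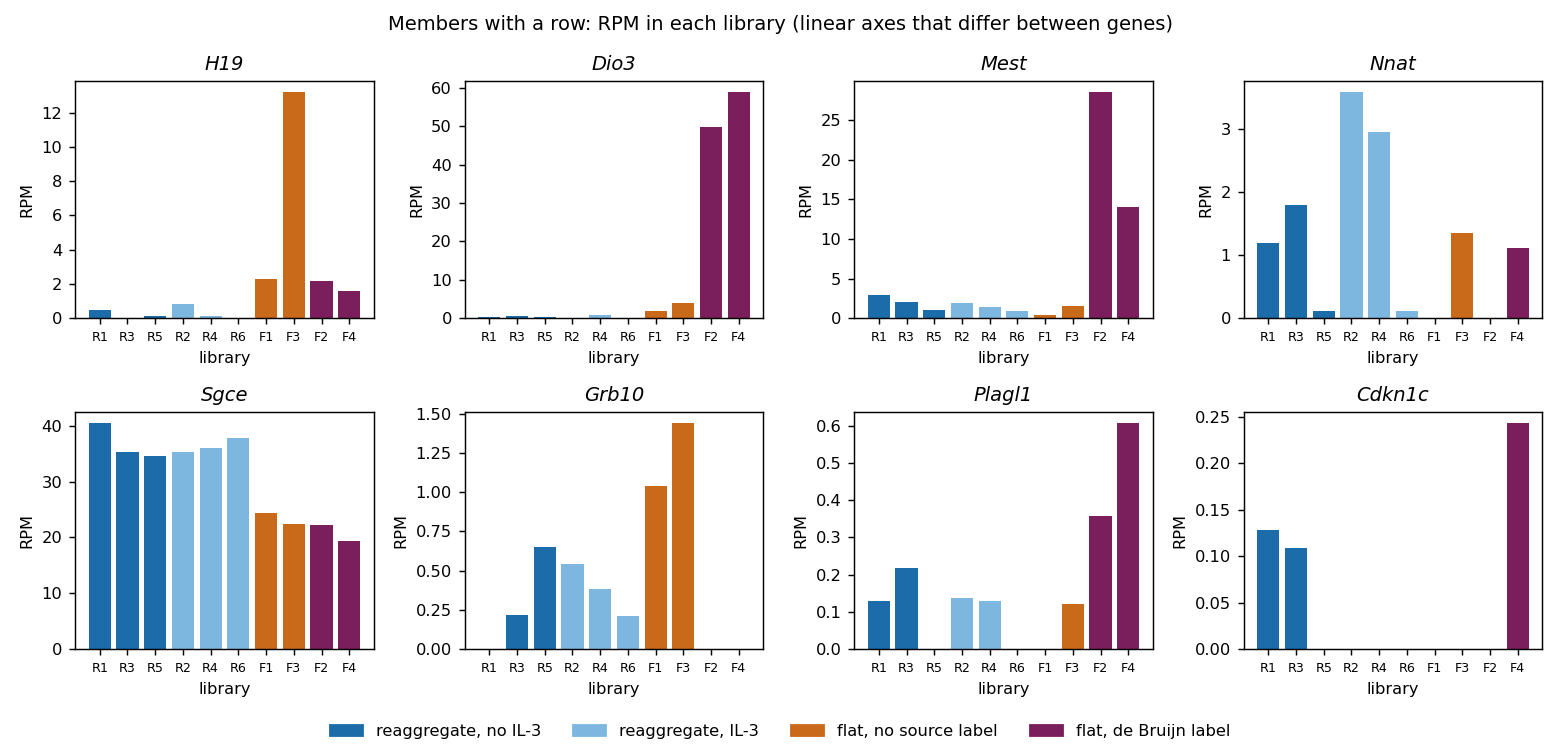
Bars give RPM in each library (R, reaggregate, F, flat culture) for the 8 members with a row, on linear axes from 0 that differ between genes. *Dio3* and *Mest* stand out in F2 and F4, *H19* in F3, *Grb10* in F1 and F3, and *Sgce* is above 34 RPM in the 6 reaggregates and below 25 RPM in the 4 flat cultures.

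*Sgce* encodes epsilon-sarcoglycan, a membrane protein of the complex that links the cytoskeleton to the matrix, and is paternally expressed (NCBIM37 chr6:4624350-4697204, minus strand). It was at 40.5, 35.4, 35.3, 36.0, 34.7 and 37.9 RPM in reaggregates 1 to 6 and at 24.4, 22.2, 22.5 and 19.3 RPM in flat cultures 1 to 4. The groups did not overlap, no pair of reaggregates stood apart, and the de Bruijn cultures lay just below the unlabelled ones. The mean of reaggregates, 36.6 ± 2.19 RPM (SD, n = 6), was 1.66-fold that of flat cultures, 22.1 ± 2.11 RPM (SD, n = 4), with a log2(RPM + 0.5) difference of 0.72 (SE 0.13). This is below the fold of 2 required for a call, and it lay between 0.63 and 0.81 under every alternative tried. *Sgce* had 160 to 358 reads per library, the most of the members in total over the 10 libraries.

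*Grb10* encodes an adaptor that restrains signalling from the insulin and IGF1 receptors (NCBIM37 chr11:11830511-11938686, minus strand). It was at 0, 0.545, 0.218, 0.384, 0.651 and 0.212 RPM in reaggregates 1 to 6. Unlabelled flat cultures 1 and 3 had 1.04 and 1.44 RPM, and both de Bruijn cultures were listed at 0. The order was thus unlabelled flat cultures above reaggregates above de Bruijn cultures, apart from reaggregate 1, which was also at 0. No library had more than 12 reads on *Grb10*, and the log2(RPM + 0.5) difference of reaggregates was −1.10 against unlabelled and 0.69 against de Bruijn cultures, of which the latter depends on the pseudocount.

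*Nnat*, a paternally expressed small membrane protein of the endoplasmic reticulum, was uneven inside both groups. Reaggregates 1 to 6 had 1.19, 3.59, 1.80, 2.96, 0.115 and 0.111 RPM, and flat cultures 1 to 4 had 0.00197, 0.00996, 1.36 and 1.12 RPM. Reaggregates 1, 5 and 6 lay within the range of the flat cultures, and the high and low flat cultures included both sources. The log2(RPM + 0.5) difference was 0.82 (SE 0.63). Estimated reads came out whole within 1.5% in only 1 of 10 libraries. The authors split reads with more than 1 mapping position, and the part of this in the *Nnat* values was not tested. *Nnat* lies inside *Blcap* on the opposite strand (NCBIM37 chr2:157385814-157388258) with no exonic base in common. It shares 87 exonic bases (4.76%) with AL672259.1, also on the opposite strand.

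*Plagl1* and *Cdkn1c* were close to or below the floor. *Plagl1*, a zinc finger transcription factor, did not exceed 0.218 RPM in reaggregates, was at 0 and 0.12 RPM in the unlabelled flat cultures and at 0.358 and 0.607 RPM in the de Bruijn cultures, where the higher value is 5 reads. *Cdkn1c*, which encodes the cyclin-dependent kinase inhibitor p57, was at 0 in 7 libraries and at 0.128, 0.109 and 0.243 RPM in reaggregates 1 and 3 and flat culture 4, together 4 reads, so it was not detectable above the floor in any library and had too low a value to be tested. Their values are too low for a fold to be read from them.

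Of the 7 members that passed the filter of 0.5 RPM in at least 1 library, *H19* and *Dio3* (2 of 7) met the limits for a call as lower in reaggregates (fold of at least 2, limma adjusted p of at most 0.05), where 6.53% of the 16933 genes tested did so. None of the 7 was called higher, where 7.32% of genes were. Without overlap between groups, *Sgce* was higher (1 of 7, against 7.8% of genes) and *H19* and *Dio3* were lower (2 of 7, against 11.4%). Between the flat sources, *Dio3* and *Mest* were called higher with the de Bruijn label (2 of 7, against 1.82% of genes) and *Grb10* lower (1 of 7, against 3.87%), and no gene was called between the sources when any of the 4 cultures was left out. Without overlap between the sources, *Dio3*, *Mest* and *Plagl1* were higher with the de Bruijn label (3 of 7, against 18.2% of genes) and *H19*, *Sgce* and *Grb10* lower (3 of 7, against 34.1%), with *Nnat* overlapping. Nothing is read from these shares, because the values that chose the members are the same ones. The median log2 difference of the 7 members was −0.30 between reaggregates and flat cultures, where that of all genes tested was 0.04, and −0.09 between flat sources, where that of all genes was −0.17. Median-ratio scaling of the libraries moved the latter to −0.04 and quantile normalization moved it to 0.05, a shift that left the directions of *Dio3*, *Mest* and *Grb10* as they were.

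Levels were compared between genes as RPM per kb of exon, on the same annotation. In reaggregates *Sgce* led with a mean of 11.9 RPM per kb and stood apart from *Nnat* at 0.890, *Mest* at 0.439, *Dio3* at 0.166 and *H19* at 0.108 RPM per kb, whose ranges overlapped from neighbour to neighbour. In unlabelled flat cultures *Sgce*, at 7.60 RPM per kb, was followed by *H19* at 3.27 and *Dio3* at 1.43, and the ranges of *H19* and *Dio3* overlapped. In de Bruijn flat cultures *Dio3* came first with 26.8 RPM per kb, ahead of *Sgce* at 6.72 and *Mest* at 5.40, whose ranges overlapped. The most abundant member of the set was therefore *Sgce* in reaggregates and unlabelled cultures and *Dio3* in de Bruijn cultures.

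**Figure D2:**
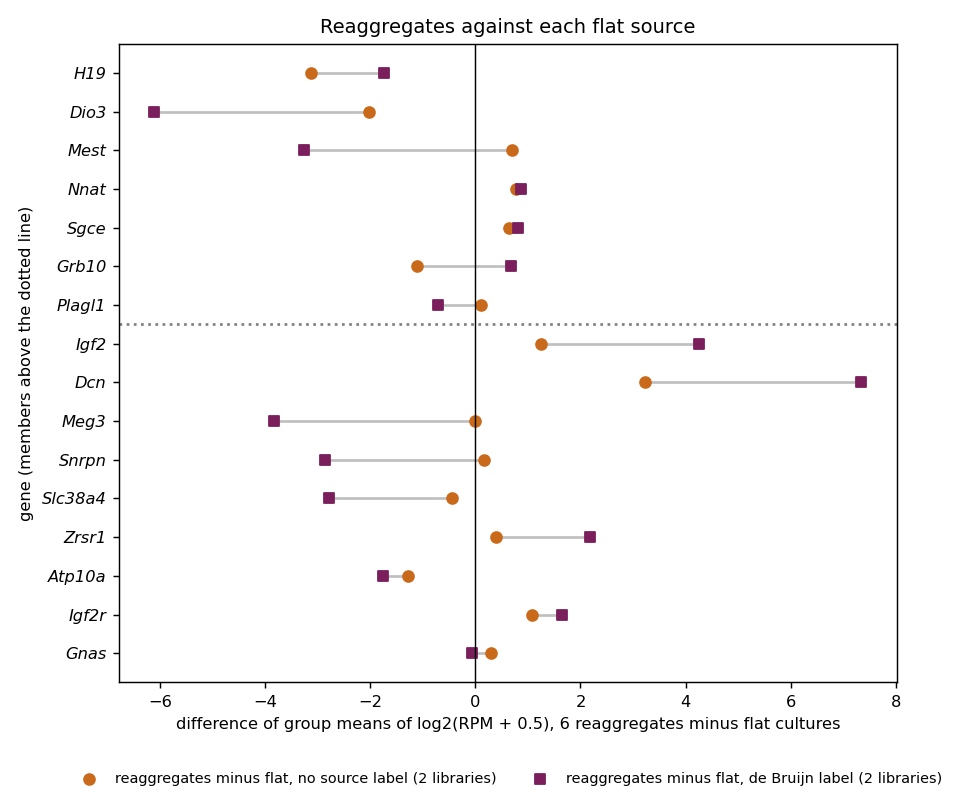
Points give the difference of group means of log2(RPM + 0.5), 6 reaggregates minus 2 unlabelled flat cultures (circles) or minus 2 de Bruijn flat cultures (squares), for 7 members above the dotted line and 9 other imprinted genes below it. *Mest* lies at 0.69 and −3.27, on either side of 0, whereas *Dio3* at −2.02 and −6.10 and *Sgce* at 0.63 and 0.81 keep their side.

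The members did not vary as a unit. Over the 10 libraries, the 21 pairs among the 7 members had Pearson's r of log2(RPM + 0.5) from −0.89 (*Dio3* and *Sgce*) to 0.88 (*Mest* and *Plagl1*) with a median of −0.06, a description that mostly restates the order of the groups of libraries. Among 11661 genes with a mean of at least 5 RPM, the genes most like *Dio3* were *Ddah1* (r = 0.987), *Ccnd2* (r = 0.984) and *Masp1* (r = 0.984). *Masp1*, for example, was at 67.6 to 108 RPM in reaggregates, 113 and 143 RPM in unlabelled and 726 and 523 RPM in de Bruijn flat cultures. The genes most like *Mest* were *Zfp697*, *Tns3* and *Pwwp2b* (r from 0.973 to 0.981), and those most like *Sgce* were *Nedd9*, *Arl5b* and *Rab2b* (r from 0.975 to 0.982). *H19* was most like *Nav2*, *Mapk14* and *Dnmt1* (r from 0.962 to 0.969), of which *Nav2* also had its highest level, 39.2 RPM, in flat culture 3. *Nnat* was most like *Mfsd7a*, *Phkg2* and *Speg* (r from 0.962 to 0.970), and *Speg* was at 88.5 to 107 RPM in reaggregates 1 to 4 and at 33.1 and 26.2 RPM in reaggregates 5 and 6. For *Plagl1* the likest genes were *Ercc1*, *Msrb3* and *Phactr2* (r from 0.959 to 0.969) and for *Grb10* AC125543.1, *Nup93* and *Slpi* (r from 0.893 to 0.945), both from few reads.

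Reaggregates 5 and 6 were low for *Nnat* and *Mest*. *Nnat* was at 0.115 and 0.111 RPM there and at 1.19 to 3.59 RPM in reaggregates 1 to 4. *Mest* had its lowest values among reaggregates there, 1.08 and 0.956 RPM against 1.41 to 2.95 RPM. The other members did not set them apart above the floor: *Sgce* was at 34.7 and 37.9 RPM, *Grb10* had its highest value among reaggregates in reaggregate 5, and *H19* was as low in reaggregates 3 and 4. This grouping was made after the values were seen and was not tested.

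Whether IL-3 altered the members was tested within reaggregates, since the members had not been chosen on that contrast. The 3 cultures with IL-3 overlapped the 3 without it for each of the 7 members tested, and none was called. *Sgce* was at 36.4 ± 1.31 RPM (SD, n = 3) with and 36.8 ± 3.19 RPM (SD, n = 3) without IL-3, a log2 difference of −0.01 (SE 0.12). The largest difference was that of *Nnat*, 0.62 (SE 0.86): within consecutive reaggregates its level was 3.59 RPM with and 1.19 RPM without IL-3 in the first pair, 2.96 and 1.80 RPM in the second, and 0.111 and 0.115 RPM in the third. *Mest* was lower with IL-3 in each of these pairs, at 1.91 against 2.95 RPM, 1.41 against 2.07 RPM and 0.956 against 1.08 RPM, and differed by −0.35 (SE 0.36), *Dio3* by −0.26 (SE 0.38), *Grb10* by 0.22 (SE 0.34), *H19* by 0.15 (SE 0.43) and *Plagl1* by −0.06 (SE 0.20). Each of the 7 had a limma adjusted p of 1 (lowest unadjusted p = 0.356, *Mest*). Among all 16933 genes limma called 0% (68 at an unadjusted p under 0.05, fewer than chance alone would give). This fit counts what consecutive reaggregates shared as error, so it could hardly detect an effect of IL-3, and its lack of calls does not show that there was none. With consecutive reaggregates as a block, an alternative that removes what the pairs share, limma again called 0 genes (564 at an unadjusted p under 0.05), the SE fell to 0.17 for *Mest* and 0.27 for *Nnat*, and the unadjusted limma p was 0.0876 and 0.0611 (adjusted p = 0.982 for both).

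**Figure D3:**
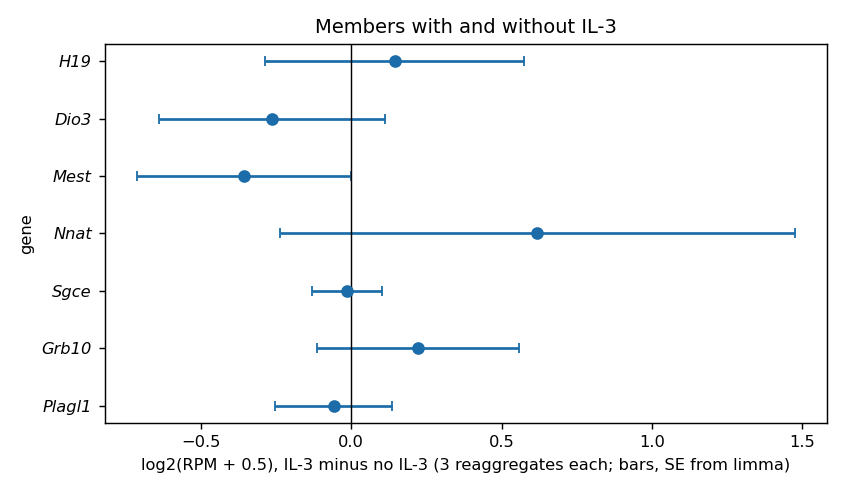
Points give the mean log2(RPM + 0.5) of 3 reaggregates with IL-3 minus that of 3 without it, and bars the SE from limma, for the 7 members tested. The bar of *Sgce* is the shortest, around −0.01, and the bars of all 7 members reach 0.

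Neighbours of the members in their imprinted regions were taken from a wider list of imprinted genes, of which 50 non-members had a row and 35 were tested. Earlier results of these data were known when this list was made, so its calls, p-values and shares are no independent test. *Igf2*, the growth factor gene next to *H19*, was at 19.1, 23.1, 29.3, 27.4, 2.28 and 2.12 RPM in reaggregates 1 to 6 and at 0.806, 0.119, 18.6 and 0.121 RPM in flat cultures 1 to 4. Flat culture 3, the one highest in *H19*, was also the one highest in *Igf2*. The groups overlapped through that culture alone (log2 difference over all libraries 2.75, SE 1.06, limma adjusted p = 0.0687). *Meg3*, the noncoding RNA of the *Dlk1*-*Dio3* region, was at or near 0 in the reaggregates and unlabelled cultures and at 1.79 and 21.4 RPM in the de Bruijn cultures that were high in *Dio3* (log2 difference between sources 3.82, SE 1.03, limma adjusted p = 0.102, a size that depends on the pseudocount). *Dlk1*, an inhibitor of fat differentiation in the same region, had a value above 0 only in flat culture 2, 0.358 RPM, which is 3 reads. *Gnas*, which encodes the stimulatory G protein alpha subunit, was at 1060 to 1360 RPM in reaggregates and 859 to 1340 RPM in flat cultures (log2 difference 0.12, SE 0.17, limma adjusted p = 0.62).

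Of the 35 imprinted non-members tested, 3 were called higher in reaggregates, beside 7.32% of all genes, and 2 lower, beside 6.53%. *Dcn*, a matrix proteoglycan that is imprinted in placenta, was at 47.3 to 478 RPM in reaggregates with a median of 87.4, and at 7.48, 0.119, 22.8 and 0.486 RPM in flat cultures 1 to 4 (log2 difference 5.28, SE 1.03, limma adjusted p = 0.00414). The difference of *Dcn* was 3.22 against unlabelled and 7.35 against de Bruijn cultures alone, and ran from 4.48 without flat culture 2 and 4.71 without flat culture 4 to 6.23 without flat culture 3. *Igf2r*, the receptor that clears IGF2, was at 205 to 276 RPM in reaggregates with a median of 223, and at 84.5, 110, 141 and 49.8 RPM in flat cultures (1.37, SE 0.25, limma adjusted p = 0.00279). *Zrsr1*, a splicing factor gene, differed by 1.30 (SE 0.39, limma adjusted p = 0.0288) with overlapping groups, at 22.0 to 41.4 RPM in reaggregates and 20.5, 5.71, 24.1 and 6.48 RPM in flat cultures. Of these, *Dcn* and *Igf2r* were higher in every reaggregate than in any flat culture. *Atp10a*, a phospholipid flippase gene, was lower in every reaggregate, at 10.5 to 17.3 RPM against 30.5, 46.8, 37.7 and 46.8 RPM in flat cultures (−1.52, SE 0.21, limma adjusted p = 6.2e-04), and *Slc38a4*, an amino acid transporter gene, differed by −1.62 (SE 0.56, limma adjusted p = 0.0477). When consecutive reaggregates were averaged to 3 samples, the call of *Atp10a* held (limma adjusted p = 0.0191) and those of *Dcn* (0.0554), *Igf2r* (0.0581), *Zrsr1* (0.162) and *Slc38a4* (0.181) were lost. *Zrsr1* also lost its call without any of reaggregates 1 to 4 or flat cultures 2 and 4, and *Slc38a4* without any of reaggregates 1, 2, 3, 5 and 6 or flat cultures 2 and 4. Only against the de Bruijn cultures were *Zrsr1* and *Slc38a4* called among the fits with a single flat source, with log2 differences of 2.19 and −2.79 there and 0.40 and −0.45 against the unlabelled cultures.

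**Figure D4:**
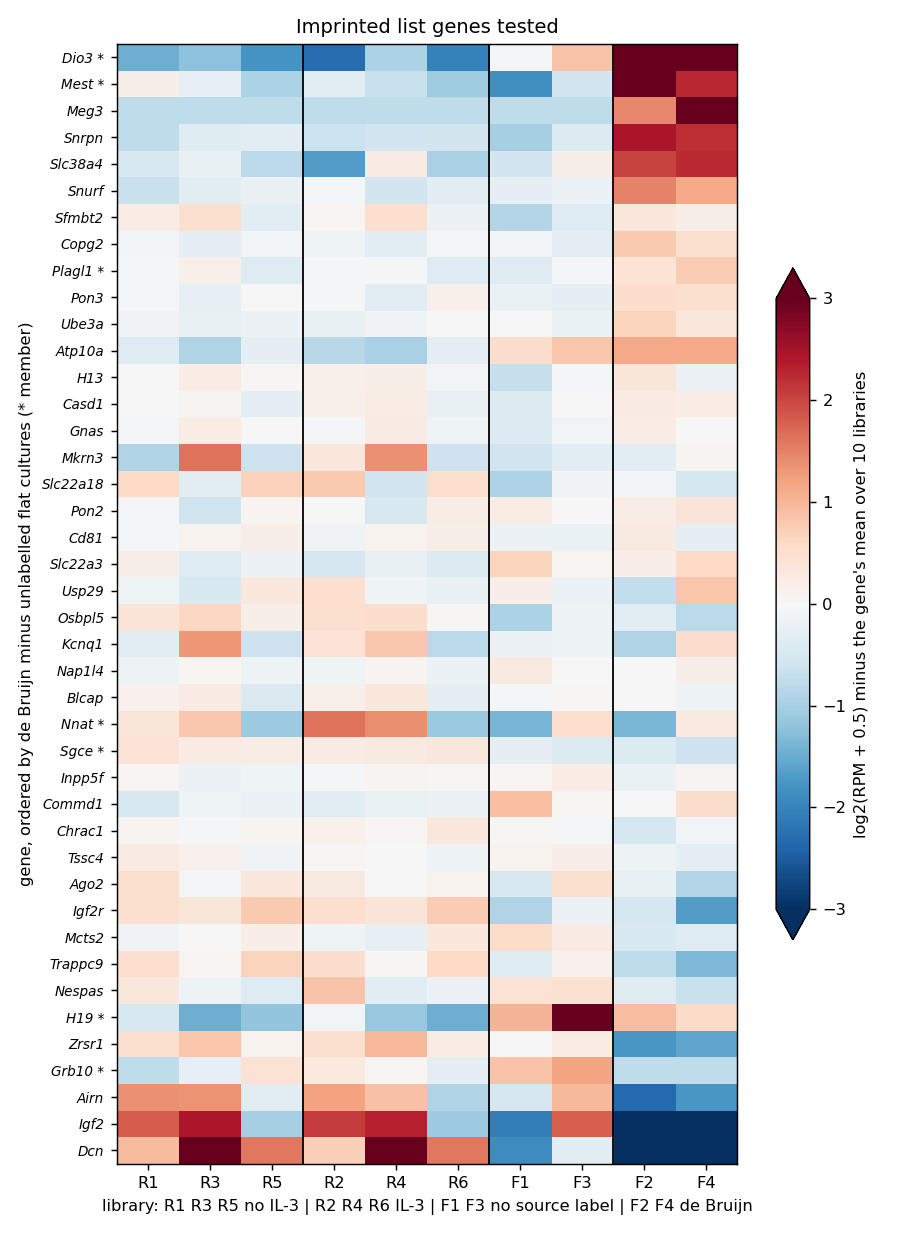
Colour gives log2(RPM + 0.5) minus the mean of the gene over 10 libraries, capped at 3 in either direction, for the 42 imprinted genes tested (rows, members starred) in each library (columns). *Dio3*, *Mest*, *Meg3*, *Snrpn*, *Slc38a4* and *Snurf* are high in F2 and F4, *Igf2* and *Dcn* are low there, and most other rows vary little.

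Between the flat sources, 3 of the 35 non-members were called higher with the de Bruijn label (1.82% of all genes) and 2 lower (3.87%). *Snrpn*, a splicing protein gene of the region that also holds *Ndn*, was at 2.32 and 3.69 RPM in unlabelled and 29.9 and 25.3 RPM in de Bruijn cultures (log2 difference 3.03, SE 0.38, limma adjusted p = 0.0167), and at 2.78 to 3.88 RPM in reaggregates. *Snurf*, which shares its transcript with *Snrpn* and was named after its values were seen because it completes the count, differed by 1.55 (SE 0.28, limma adjusted p = 0.0451), and reads of these overlapping genes cannot be told apart with certainty. *Slc38a4* was at 0.576 and 1.32 RPM against 6.08 and 7.05 RPM (2.33, SE 0.40, limma adjusted p = 0.0392). These genes had the order of *Dio3* and *Mest*, with high de Bruijn cultures and low unlabelled cultures and reaggregates. *Dcn* (−4.13, SE 0.61, limma adjusted p = 0.0255) and *Zrsr1* (−1.79, SE 0.33, limma adjusted p = 0.044) were lower with the de Bruijn label. The *Dcn* difference between sources was −3.35 without flat culture 3, −4.90 without flat culture 1 and −5.20 with a pseudocount of 0.1. Each of these calls was lost when any of the 4 cultures was left out, which leaves a source with 1 library whose spread is then taken from the other.

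Other values moved with the flat source and with *Dio3* and *Mest*. The 4 adipocyte markers with a row summed to 440 and 716 RPM in de Bruijn cultures, against 31.3 and 47.4 RPM in unlabelled cultures and 19.3 to 45.6 RPM in reaggregates. All 4 were above 0 in de Bruijn cultures and also in at least 1 reaggregate. *Fabp4* made up most of this sum, with 435 and 711 RPM in de Bruijn cultures. The lipid droplet genes *Cidec* (2.98 and 3.16 RPM) and *Plin1* (1.43 and 1.21 RPM) were also higher in de Bruijn than in the unlabelled cultures, where both were at 0, with limma adjusted p = 0.0086 and 0.0185. *Adipoq*, which marks mature fat cells, stayed at or below 0.768 RPM in every library and did not have this order. It was at 0.358 and 0.121 RPM in de Bruijn cultures and was highest in reaggregate 4. The blood cell marker *Cd34* was listed at 0 in both de Bruijn cultures and was above 8 RPM in the other 8 libraries. The skeletal muscle marker *Acta1* was at 20.2 and 14.4 RPM in de Bruijn cultures and between 0.52 and 3.47 RPM in the other libraries. The neural marker sum was 7.40 and 9.80 RPM in de Bruijn, 72.0 and 99.8 RPM in unlabelled cultures, mostly *Tubb3*, and 17.6 to 32.9 RPM in reaggregates. The 5 endothelial markers did not sum to more than 1.09 RPM in any library. The sum of the 5 osteoblast markers did not separate the flat sources, at 5.03 to 9.82 RPM in unlabelled and 5.382 to 7.355 RPM in de Bruijn cultures. It was 10.4 to 23.4 RPM in reaggregates, where the excess was that of *Dmp1*, at 8.85 to 16.7 RPM against 2.16 RPM at most in flat cultures. Of these markers, *Sp7* was higher with the de Bruijn label, at 0.835 and 0.972 RPM against 0 and 0.12 RPM (log2 difference 1.33, SE 0.25, limma adjusted p = 0.0476). The part of these cell states in the member values was not tested, and in bulk RNA fewer cells of a type and less RNA per cell cannot be told apart.

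Reaggregates also differed from flat cultures in RNA of genes used in cell division. All 16 mitosis and replication genes were called lower in reaggregates, with a median log2 difference of −2.19, where 6.53% of all genes tested were called lower. Their sum was 371 to 546 RPM in reaggregates, 2182 to 2650 RPM in unlabelled and 1187 to 1439 RPM in de Bruijn cultures. *Mki67* overlapped between the groups, at 39.0 RPM in flat culture 2 and 34.9 to 44.3 RPM in reaggregates. These genes were not followed through the alternatives. The part of this difference in the lower levels of *H19* and *Dio3* was not tested.

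Genes that maintain or remove imprints were examined beside the members, from a list also made with earlier results of these data known. Of 13 tested, 2 were called higher in reaggregates (7.32% of all genes) and 1 lower (6.53%). *Dnmt3a*, a de novo DNA methyltransferase gene, had a median of 32.4 RPM in reaggregates (14.6 to 42.1) and was at 9.67, 1.79, 17.4 and 4.02 RPM in flat cultures (log2 difference 2.11, SE 0.52, limma adjusted p = 0.0124). *Tet3*, which encodes an enzyme that oxidises methylated cytosine, was at 6.07 to 15.5 RPM against 2.30, 2.74, 7.30 and 3.89 RPM (1.46, SE 0.35, limma adjusted p = 0.0112). *Uhrf1*, which brings the maintenance methyltransferase to replicating DNA, was at 25.1 to 35.5 RPM against 110, 65.8, 168 and 52.8 RPM (−1.56, SE 0.28, limma adjusted p = 0.00274) in parallel with the replication genes. With consecutive reaggregates averaged, none of these calls held (limma adjusted p = 0.1 for *Dnmt3a*, 0.0889 for *Tet3* and 0.0561 for *Uhrf1*). Against the unlabelled cultures alone the differences of *Dnmt3a* and *Tet3* were 1.08 and 1.31 and not called (limma adjusted p = 0.121 and 0.0889), and that of *Uhrf1* against de Bruijn cultures alone, −0.96, was below the fold required. None of the 13 was called between the flat sources.

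Partners of the members in their pathways were examined last, from a list also made with earlier results of these data known, so that nothing is read from the shares of calls. Of 19 tested, 5 were called higher in reaggregates and 0 lower, against 7.32% and 6.53% of all genes, and between the flat sources 0 were called higher and 3 lower with the de Bruijn label (1.82% and 3.87%). *Thra*, the thyroid hormone receptor gene whose ligand *Dio3* removes, ran opposite to *Dio3*: it was at 206 to 294 RPM in reaggregates, 108 and 160 RPM in unlabelled and 36.6 and 37.5 RPM in de Bruijn cultures (reaggregates minus flat 1.80, SE 0.38, limma adjusted p = 0.00579, and de Bruijn minus unlabelled −1.81, SE 0.30, limma adjusted p = 0.0348). *Dio2* encodes the deiodinase that activates thyroid hormone and was named after its values were seen. It was at 2.88 and 6.80 RPM in unlabelled cultures and listed at 0 in both de Bruijn cultures (−3.31, SE 0.44, limma adjusted p = 0.0189). The size of this difference depended on the pseudocount, at −5.50 with 0.1 and −2.46 with 1. The difference of reaggregates, at 0.976 to 6.67 RPM, from all flat cultures was 1.29 (SE 0.74, limma adjusted p = 0.197). *Igf1*, a ligand of the receptor that *Grb10* restrains, was at 153 to 358 RPM in reaggregates, 53.6 and 61.4 RPM in unlabelled and 2.03 and 2.05 RPM in de Bruijn cultures (reaggregates minus flat 4.36, SE 0.88, limma adjusted p = 0.00506, and de Bruijn minus unlabelled −4.51, SE 0.32, limma adjusted p = 0.00581). The difference of *Igf1* was 2.10 against unlabelled and 6.61 against de Bruijn cultures alone, 3.60 and 3.61 without flat culture 2 or 4, and 5.08 and 5.14 without flat culture 1 or 3. The calls of *Thra*, *Dio2* and *Igf1* between the flat sources were each lost when any of the 4 cultures was left out. *Irs2*, an adaptor of the insulin receptor, was at 17.4 to 47.8 RPM in reaggregates against 4.80, 23.1, 6.11 and 15.2 RPM in flat cultures (1.48, SE 0.43, limma adjusted p = 0.026). *Sgca*, another sarcoglycan gene, was also called (1.08, SE 0.33, limma adjusted p = 0.0292) and was named after its values were seen. The sarcoglycan genes did not move together. *Sgcd* was lower in every reaggregate, at 67.5 to 97.7 RPM against 99.7 to 126 RPM in flat cultures. Its difference of −0.46 (SE 0.14, limma adjusted p = 0.0331) was below the fold required. *Sgcb* differed by −0.08 (SE 0.15, limma adjusted p = 0.706). The call of *Sgca* held under 10 of 22 alternatives, and was lost without reaggregate 1 or 2 or flat culture 1, 2 or 4 and against unlabelled cultures alone (0.81, limma adjusted p = 0.206). Against unlabelled cultures alone the difference of *Thra* was 0.89, below the fold required, and *Irs2* was called against these (2.33) but not against de Bruijn cultures (0.62, limma adjusted p = 0.196), nor without reaggregate 1, 3 or 4 or flat culture 1. None of the 5 calls held when consecutive reaggregates were averaged (limma adjusted p from 0.0725 for *Igf1* to 0.138 for *Irs2*). Of the other Cip/Kip inhibitors, relatives of *Cdkn1c*, *Cdkn1a* was at 616 to 1070 RPM in reaggregates and 322 to 573 RPM in flat cultures, with a difference of 0.83 (SE 0.22) that is below the fold required. *Cdkn1b* overlapped between the groups, at 53.4 to 162 RPM in reaggregates and 56.0 to 89.2 RPM in flat cultures (0.33, SE 0.31, limma adjusted p = 0.434).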

How the data were processed

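TruSeq libraries were read as single ends. The authors aligned to NCBI37/mm9 with TopHat 1.2.0 and Bowtie, counted over Ensembl gene models within GeneProf, split each read with several mapping positions, and deposited RPM values. For downstream work in R the authors set aside genes that did not reach 0.5 RPM in any sample. A log2 fold change and an adjusted p-value from the authors' DESeq comparison were deposited in 2 further columns and were not used.

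Depth was estimated from the commonest RPM above 0 taken as 1 read. Since only 56.1% to 58.4% of values up to 10 RPM were whole multiples of it (within 1.5%), no count test was run. Genes above 0.5 RPM in at least 1 library were compared on log2(RPM + 0.5), which understates changes of low genes, with limma 3.58.1 in R 4.3.3 (empirical Bayes with trend, no covariates). A call required a fold of 2 and a Benjamini-Hochberg adjusted p of 0.05 over 16933 genes. The code was tested on simulated data. Pseudocounts, filters, scalings, left-out libraries, single sources, IL-3 groups and averaged reaggregates were tried as alternatives. Gene models came from an NCBIM37 annotation later than that of the authors, and promoter windows from RefSeq (GRCm38.p6), matched by symbol.

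The members and gene lists were chosen with earlier results of these data known. Named beside the members were *Igf2*, *Dlk1*, *Meg3*, *Igf2r* and *Gnas*, up to 10 more imprinted genes and up to 6 each of the imprint maintenance and partner lists that were called and whose higher group averaged 5 RPM or more, by largest difference, and the 3 genes most like each member. Groups were taken from the labels. Plots used matplotlib 3.10.9 (Python 3.11.15). A gene of the partner list is counted but not reported here.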

Additional observations from a re-analysis of the deposited data

Results flagged for a closer look

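In 24 named genes, 47 groups of 4 or 6 values were examined for a sample far from the others, and 6 were flagged by a rule meant to flag about 1 in 20 by chance. That rate does not hold where all values of a group but 1 are 0, since such a value is always flagged. This was so for *Cdkn1c*, *Dlk1* and *Meg3* in reaggregates, so the number flagged cannot be set against chance. *H19* was at 13.2 RPM in flat culture 3, and the next highest flat culture was at 2.30 RPM. *Igf2* was at 18.6 RPM in the same culture, against 0.806 RPM at most in the other flat cultures. *Meg3* was at 21.4 RPM in flat culture 4 against 1.79 RPM in flat culture 2, and its value of 7.17e-05 RPM in reaggregate 2, a small part of 1 read, stood alone among reaggregates at 0. *Dlk1* at 0.358 RPM in flat culture 2 and *Cdkn1c* at 0.243 RPM in flat culture 4 were the only flat cultures above 0 for these genes, at or below 3 reads.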

How the results depend on the processing

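The direction of *H19*, *Dio3*, *Sgce* and *Nnat* between reaggregates and flat cultures was the same under all 22 alternatives, with log2 differences from −3.72 to −1.73, from −6.10 to −2.02, from 0.63 to 0.81 and from 0.51 to 1.54. That of *Mest* ran from −3.27 to 0.69, that of *Grb10* from −1.10 to 0.69 and that of *Plagl1* from −0.71 to 0.10, depending on the flat source. Of the imprinted non-members, 3 were called higher in reaggregates, but 6 with the replicate block, 6 against de Bruijn cultures only, 1 and 0 with only reaggregates without or with IL-3, 0 with averaged reaggregates, and 2 to 7 when a library was left out (7 without flat culture 3, 5 without reaggregate 6). The 2 called lower became 1 with a pseudocount of 0.1, without a filter, with quantile normalization, with the replicate block, against unlabelled cultures only, with only reaggregates without or with IL-3 and with averaged reaggregates, 5 against de Bruijn cultures only, and 1 to 5 when a library was left out (4 without flat culture 1, 5 without flat culture 3). Between flat sources, the 3 called higher became 1 with a pseudocount of 0.1 and 0 without a filter, the 2 called lower became 0 without a filter and 1 with median-ratio scaling, and both counts were 0 whichever culture was left out. Over all alternatives, the counts between flat sources ran from 0 to 4 for those called higher and from 0 to 3 for those called lower. The cause of these changes in counts was not tested, except that leaving out libraries or averaging them leaves fewer samples. With IL-3, leaving out a reaggregate gave −0.262 to 0.431 for *H19*, −0.663 to 0.008 for *Dio3*, −0.053 to 0.057 for *Sgce*, −0.2 to 0.061 for *Plagl1*, −0.064 to 0.537 for *Grb10*, 0.058 to 1.492 for *Nnat* and −0.659 to −0.096 for *Mest*, none of them called. The replicate numbers did not pair the samples: deviations of same-numbered cultures correlated at −0.041, −0.213, 0.072 and 0.155, and with the replicate block 1885 genes were called higher and 1154 lower, against 1239 and 1106 without it. Over all genes, calls higher and lower in reaggregates were 312 and 429 with averaged reaggregates, 345 and 474 with only those without IL-3, 277 and 360 with only those with IL-3, 627 and 1044 against unlabelled and 2579 and 1775 against de Bruijn cultures only, 2121 and 1522 without flat culture 3 and 766 and 815 without flat culture 4. Between sources, 309 genes were called higher and 656 lower with the de Bruijn label, but 791 and 972 with quantile normalization, 430 and 1028 above 1 RPM in at least 2 libraries, 56 and 110 without a filter and 0 without any of the 4 cultures. Depth limits *Cdkn1c*, *Plagl1* and *Grb10*, with 12 reads or fewer in every library.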

Other observations

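The reaggregates differed among themselves in imprinted genes that are no members, some already described, and in the imprint maintenance gene *Zfp57*. The values are given here. *Igf2* was at 2.28 and 2.12 RPM in reaggregates 5 and 6 and at 19.1 to 29.3 RPM in reaggregates 1 to 4, and *Airn*, the noncoding RNA antisense to *Igf2r*, was at 1.52 and 0.85 RPM there and at 4.10 to 6.03 RPM in the others. *Mkrn3*, a ubiquitin ligase gene of the *Snrpn* region, was highest in reaggregates 3 and 4, at 2.40 and 1.92 RPM, and did not exceed 0.681 RPM elsewhere. *Zfp57*, whose protein guards methylated imprints, was at 64.5 and 53.9 RPM in the same reaggregates 3 and 4 and at 4.04 to 21.4 RPM in the other 8 libraries. *Dcn* was also highest in reaggregates 3 and 4, at 417 and 478 RPM. These genes were picked after their values were seen, and no difference among reaggregates was tested.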
